A study of Mus musculus with 48 samples.

Results

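The 10 genes described here belong to the circadian clock of the mouse, the transcriptional feedback loop that gives cells a daily rhythm. They are Arntl, Per1, Per2, Per3, Ciart, Bhlhe41, Nr1d1, Nr1d2, Dbp and Tef. They were chosen by symbol from the known parts of that loop, with earlier results of these data known. All 10 were found by Ensembl identifier among the 48526 genes of the deposited table, through the GENCODE gene symbols for the mouse genome build GRCm38. RNA was sequenced from the cortex of 12 male wild-type mice of the strain C57BL/6JRj, which carried no transgene and received no agent. Mice 187 to 190 were 3 weeks old (3w), mice 191 to 194 were 5 months old (5m) and mice 195 to 198 were 18 months old (18m), so that each age had 4 mice. For the middle group the labels say 6 months where the protocol says 5 months, and the latter is used here. Each mouse gave 4 libraries, which were input RNA and sucrose cushion (SC) RNA of total homogenate (TH) and of synaptosomes (SYN). Synaptosomes are nerve terminals that were torn off during homogenization and collected at an interface of a sucrose gradient. The study takes the RNA of the SC pellet as associated with ribosomes. The 48 libraries thus formed 12 groups of 4 mice, called input_TH, SC_TH, input_SYN and SC_SYN at each age. The hour at which the mice were killed is not given in the sources used here, so for genes with a daily rhythm the effects of age and of time of day cannot be told apart.

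In the loop, ARNTL (also called BMAL1) pairs with CLOCK or its relative NPAS2 and switches on genes that carry E-box sequences in their promoters. Among these are the Per and Cry genes, Ciart and Bhlhe41, whose proteins act back on ARNTL and CLOCK as repressors, and Nr1d1 and Nr1d2, which encode the nuclear receptors REV-ERBα and REV-ERBβ and repress Arntl itself. Dbp and Tef encode PAR-bZip transcription factors that carry the rhythm to further genes through D-box sequences, and in most tissues Arntl peaks at about the opposite time of day from Dbp, Nr1d1 and the Per genes. Per1 and Per2 are also known to respond within a short time to glucocorticoids and to neuronal activity, the latter through the cAMP response element (CRE).

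All 10 are protein-coding genes, and their counts cover their annotated exons. On GRCm38 the positive arm lies with Arntl (ENSMUSG00000055116) at chr7:113207465-113314126 on the plus strand. The Per genes are Per1 (ENSMUSG00000020893) at chr11:69095217-69109960 on the plus strand, Per2 (ENSMUSG00000055866) at chr1:91415982-91459324 on the minus strand and Per3 (ENSMUSG00000028957) at chr4:151003652-151044665 on the minus strand. The other E-box repressors are Ciart (ENSMUSG00000038550) at chr3:95878503-95882251 on the minus strand and Bhlhe41 (ENSMUSG00000030256) at chr6:145858243-145865558 on the minus strand. The REV-ERB genes are Nr1d1 (ENSMUSG00000020889) at chr11:98767932-98775333 on the minus strand and Nr1d2 (ENSMUSG00000021775) at chr14:18204054-18239127 on the minus strand, and the output genes are Dbp (ENSMUSG00000059824) at chr7:45705088-45710203 on the plus strand and Tef (ENSMUSG00000022389) at chr15:81802421-81826863 on the plus strand.

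The promoters were searched for words that these factors are known to bind, and those of 4 genes are shown because they hold E-boxes of the repressor arm, the D-boxes found, and an element of the kind that REV-ERB proteins bind in Arntl. The sequences are RefSeq promoters of build GRCm38.p6, each 300 bases long around an annotated start site and written 5′ to 3′ on the strand of the gene. Capitals mark the words found, which are CACGTG (the E-box) in Ciart and Per1, TTATGTAA (a D-box) in Per3 and TAGGTCA (an element shared by ROR and REV-ERB proteins) in Arntl.
Ciart, chr3:95882179-95882478, minus strand: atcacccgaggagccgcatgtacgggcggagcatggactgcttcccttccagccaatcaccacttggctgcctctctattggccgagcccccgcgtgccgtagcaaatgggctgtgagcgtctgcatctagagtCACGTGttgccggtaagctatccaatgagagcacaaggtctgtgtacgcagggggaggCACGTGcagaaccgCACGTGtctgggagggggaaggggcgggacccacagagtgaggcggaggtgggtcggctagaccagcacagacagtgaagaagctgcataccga
Per1, chr11:69098699-69098998, plus strand: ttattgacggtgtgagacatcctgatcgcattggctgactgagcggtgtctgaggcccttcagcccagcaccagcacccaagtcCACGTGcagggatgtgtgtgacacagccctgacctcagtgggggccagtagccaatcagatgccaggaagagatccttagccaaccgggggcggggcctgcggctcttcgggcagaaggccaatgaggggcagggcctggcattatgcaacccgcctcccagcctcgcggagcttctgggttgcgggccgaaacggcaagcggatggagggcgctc
Per3, chr4:151044616-151044915, minus strand: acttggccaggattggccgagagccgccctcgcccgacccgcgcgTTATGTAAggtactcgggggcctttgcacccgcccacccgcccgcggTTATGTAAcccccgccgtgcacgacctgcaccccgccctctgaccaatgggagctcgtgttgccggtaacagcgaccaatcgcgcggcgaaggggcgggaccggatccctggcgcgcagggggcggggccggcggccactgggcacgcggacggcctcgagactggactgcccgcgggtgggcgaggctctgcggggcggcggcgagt
Arntl, chr7:113207261-113207560, plus strand: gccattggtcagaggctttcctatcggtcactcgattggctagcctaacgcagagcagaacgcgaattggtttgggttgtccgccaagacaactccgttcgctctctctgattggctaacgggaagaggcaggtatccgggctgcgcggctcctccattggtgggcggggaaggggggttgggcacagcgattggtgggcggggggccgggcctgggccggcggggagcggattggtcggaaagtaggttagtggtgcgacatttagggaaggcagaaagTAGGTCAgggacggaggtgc

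Ciart held 3 E-boxes, whose first bases lie at positions -116, -58 and -44 from the start site, and Per1 held 1 at -166. The D-boxes of Per3 begin at -205 and -158, and the TAGGTCA of Arntl begins at position 30, downstream of the start. The table of promoters matched 9 of the 10 genes with 12 promoters, and Per2 had no entry. On both strands, CACGTG was found in 5 of these 12 promoters, against 7.15% of all 32851 promoters, and they belong to 4 genes (Ciart, Per1, Bhlhe41 and both promoters of Tef). The second promoter of Per1, at chr11:69099902-69100201, held none. The E-prime box CACGTT, a variant that does not overlap with the palindromic E-box, was found in 1 of the 12, that of Nr1d1, against 4.68% of promoters. A D-box (TTATGTAA or TTACGTAA) was found in 1 of the 12, that of Per3 (1.06% of all promoters), a ROR element (TAGGTCA or TGGGTCA) in 1 of the 12, 1 of the pair of Arntl (6.45%), and the full CRE (TGACGTCA) in 0 of the 12 (1.79%). A match is a description of these letters in this window and does not show a bound site. Only these exact words were searched, so elements that differ from them by a letter were not counted, in Arntl as in the other genes.

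Library totals ran from 1780267 to 18590040 counts on genes, with medians of 10815833.5 in input_TH, 8643431 in SC_TH, 3756951 in input_SYN and 7298371 in SC_SYN. Libraries of the same group differed by more than counting error, with a chi-square per gene of 1.98 to 32.2 over 72 pairs of libraries, so no library was a copy of another. Levels are given as CPM, the counts scaled by library size, with library sizes adjusted by TMM (trimmed mean of M-values) over all 48 libraries. The sum of 8 neuronal markers was 5311 to 6739.8 CPM in input_TH and 15121 to 17113 CPM in input_SYN over the 3 ages, and the sum of 6 RNAs that stay in the nucleus was 16693 to 19448 CPM and 1622 to 4282 CPM. The neuronal markers did not move as 1 block, since 5 of the 8 were higher and 2 lower in input_SYN than in input_TH (median log2 ratio 0.23, range -0.34 to 2.14), and 3 were higher and 5 lower in SC_SYN than in SC_TH (median -0.47). The sum of 8 astrocyte markers was 13339 to 16824 CPM in input_SYN against 3736 to 5134 CPM in input_TH, and all 8 were higher there (median log2 ratio 1.63), as were all 8 of microglia (1.56) and 5 of 8 of oligodendrocytes, 2 of which were lower (0.62). All 8 endothelial and all 5 erythrocyte markers were lower (median log2 ratios -4.27 and -3.27), so the synaptosome fraction also held RNA of glia, and the part of the mixture of cells in ratios between SYN and TH was not tested. In such bulk samples, fewer cells of a type and less RNA per cell cannot be told apart.

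All 10 genes were detected in all 48 libraries and passed the filter on low counts in every comparison. Per kilobase of exon, Tef had the highest level of the 10 in each fraction, with means over 12 mice of 32.2 ± 2.74 (SD, n = 12) CPM per kilobase in input_TH, 28.1 ± 5.30 in SC_TH, 25.3 ± 5.07 in input_SYN and 25.4 ± 6.08 in SC_SYN. Its lead over the next gene exceeded both SDs in input_TH and input_SYN, where Per1 came next (20.96 ± 4.96 and 16.5 ± 5.87), but was within the larger SD in SC_TH and SC_SYN, where Nr1d1 came next (27.3 ± 7.35 and 20.0 ± 6.07). In input_TH the order went on with Nr1d1 (19.5 ± 2.72), Dbp (18.0 ± 4.20) and Nr1d2 (13.2 ± 1.80), and the gaps from Per1 to Nr1d1 and from Nr1d1 to Dbp were within the larger SD. Per2 (7.77 ± 2.12), Per3 (6.87 ± 0.788) and Bhlhe41 (5.72 ± 1.19) formed a lower group of neighbours within 1 SD, and Arntl (3.56 ± 0.34) and Ciart (3.11 ± 0.914) stood last. Per3 was last in SC_TH (3.78 ± 0.501) and SC_SYN (1.89 ± 0.518), and Arntl was last in input_SYN (1.83 ± 0.434), each within the spread of the gene above it. Ciart rests on few reads, with 3 to 30 counts per library in input_SYN and 35 to 208 in SC_TH, so differences between its libraries of input_SYN carry a large counting error. Reads were counted without regard to strand, and some of these genes share exonic bases with a gene on the other strand, from which their reads cannot be told apart. Dbp shares 539 of its 2993 exonic bases with Sphk2, Nr1d1 shares 263 of 3077 with the far more abundant Thra (193409 counts over all libraries against 29013 for Nr1d1), Tef shares 193 of 7867 with Gm17597, and Bhlhe41 shares 1280 of 6720 with Gm43909, which had 205 counts.

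**Figure D1:**
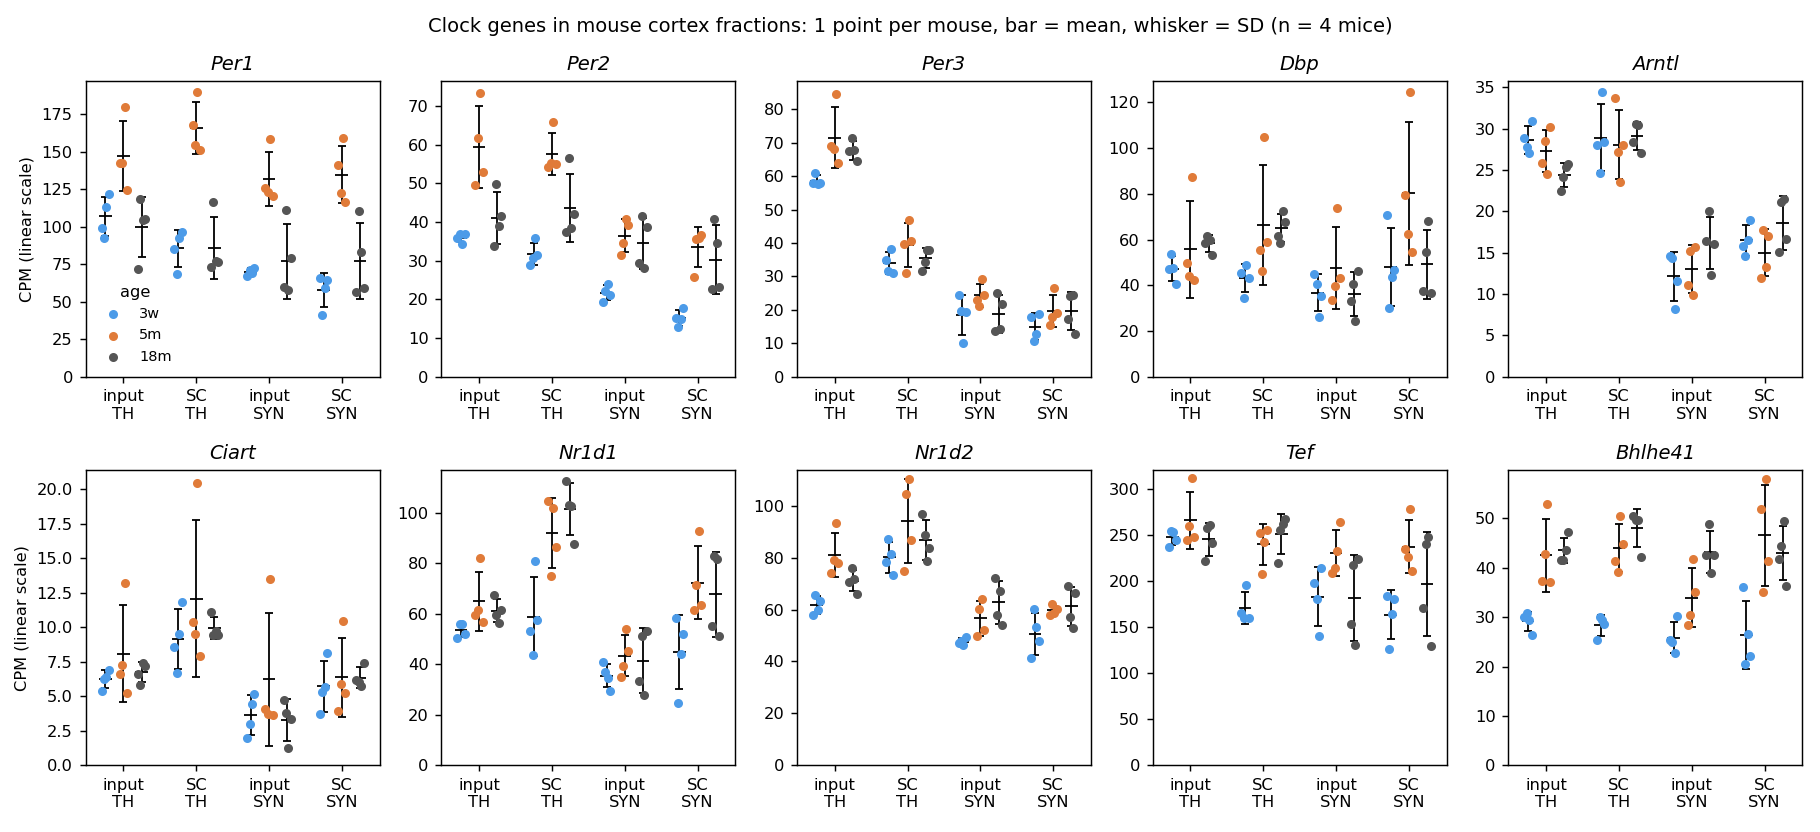
CPM of the 10 clock genes on linear axes from 0, with 1 point per mouse, by fraction (horizontal axis) and age (blue 3w, orange 5m, grey 18m), where bars are means and whiskers are SDs of 4 mice. The Per1 points of 5m lie above those of 3w and of 18m in all 4 fractions, and the highest Dbp point of each fraction at 5m is mouse 193 (73.7 to 124 CPM).

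The comparison of 5m with 3w addresses the passage from the juvenile to the adult cortex, and that of 18m with 5m addresses aging. From 3w to 5m, 5 of the 10 genes rose in input_TH, 6 in SC_TH, 2 in input_SYN and 3 in SC_SYN, and none fell. Over all genes tested, 4.76% rose in input_TH, 9.48% in SC_TH, 1.28% in input_SYN and 4.02% in SC_SYN (edgeR's quasi-likelihood test, adjusted p under 0.05). Per1 and Per2 were the genes that rose in each fraction, Bhlhe41 rose in all but input_SYN, and Arntl and Ciart passed the test in none. From 5m to 18m, Per1 and Per2 fell in input_TH and Per1 fell in SC_TH, and no gene of the 10 rose. Over all genes, 7.35% fell in input_TH and 1.79% in SC_TH. None of the 10 passed the test in input_SYN or SC_SYN at 18m against 5m, where few genes did (0.108% and 0.00702% of all genes fell). In each, 3 of the 10 had an unadjusted p under 0.05, as did 1214 of 12975 genes in input_SYN and 2474 of 14240 in SC_SYN. In both, DESeq2 called 1 of the 10, Per1 (adjusted p = 0.00864 in input_SYN and 0.0227 in SC_SYN). The shares above are those of edgeR, and the share of all genes that DESeq2 called is not given here. The median log2 fold change of the 10 genes at 5m against 3w was 0.33 in input_TH, 0.56 in SC_TH, 0.31 in input_SYN and 0.56 in SC_SYN, against medians of all genes between -0.01 and 0.01. At 18m against 5m it was -0.13, -0.06, -0.21 and -0.07 in the same order. The 2 comparisons share the mice of 5m, and the 4 fractions share all 12 mice, so they are not independent of each other. No test compared 18m with 3w. Where mice of different ages are said below not to overlap, this is a description, and the share of all genes without overlap is not given here.

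**Figure D2:**
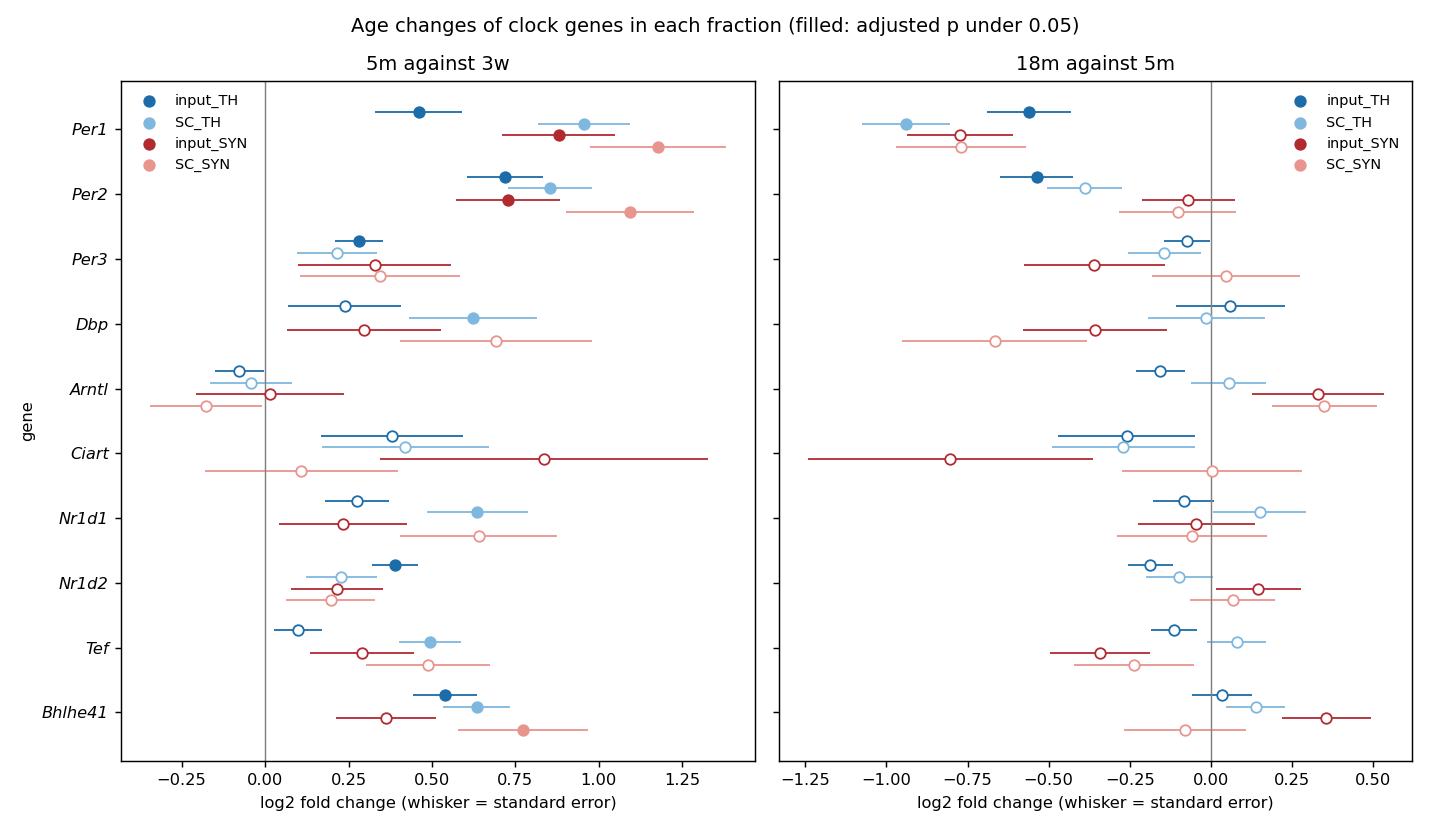
Log2 fold changes of the 10 clock genes at 5m against 3w (left) and 18m against 5m (right) in the 4 fractions, with whiskers of 1 standard error and filled points for an adjusted p under 0.05. On the left, 16 of 40 points are filled, all to the right of 0, and on the right 3 are filled, those of Per1 in input_TH and SC_TH and of Per2 in input_TH.

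Arntl, the positive arm of the loop, had no called change with age. In input_TH its level was 28.9, 27.7, 27.0 and 31.0 CPM in the mice of 3w, 25.8, 28.5, 24.5 and 30.2 CPM in those of 5m and 22.5, 24.2, 25.3 and 25.7 CPM in those of 18m. The ages of 3w and 5m overlapped, as did 5m and 18m, while each mouse of 18m was below each mouse of 3w, a difference that was not tested. The log2 fold change was -0.08 (edgeR adjusted p = 0.572) from 3w to 5m and -0.16 (edgeR adjusted p = 0.167) from 5m to 18m. In synaptosomes it was 0.33 (edgeR adjusted p = 0.628) in input_SYN and 0.35 (edgeR adjusted p = 0.284) in SC_SYN at 18m against 5m, and in SC_TH the mice of the 3 ages overlapped between 23.5 and 34.4 CPM.

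Per1, a repressor of the loop that also responds to hormones and activity, had its highest levels at 5m in every fraction. In input_TH, Per1 was at 99.4, 92.7, 113 and 122 CPM in the mice of 3w, 143, 143, 179.8 and 124 at 5m and 71.8, 119, 104 and 105 at 18m. In SC_TH it was at 85.1, 68.7, 92.7 and 96.5 CPM at 3w, 168, 154, 189.7 and 151 at 5m and 72.9, 117, 77.4 and 76.3 at 18m. In both fractions each mouse of 5m was above each mouse of the other ages, and mouse 196 was the highest of the 4 oldest. Mouse 196 was also highest of the 4 for 10, 8, 8 and 8 of 12 immediate early genes in input_TH, SC_TH, input_SYN and SC_SYN. Over all genes tested it was the highest for 26.3%, 23.3%, 22.3% and 23.6%. Mouse 195 was the lowest for 10, 11, 10 and 10 of the 12, against 29%, 28.2%, 19.9% and 32.3% of all genes. The part of this in Per1 and Per2 was not tested. In input_SYN, Per1 was at 67.4, 71.2, 68.9 and 72.7 CPM at 3w, 126, 123, 159 and 120.4 at 5m and 59.5, 111, 57.7 and 79.3 at 18m. In SC_SYN it was at 65.7, 41.3, 59.2 and 64.5 CPM at 3w, 141, 122, 159 and 117 at 5m and 56.4, 110.2, 82.9 and 59.0 at 18m. Again 5m did not overlap with 3w or with 18m, and mouse 196 came closest to the mice of 5m. From 3w to 5m Per1 rose 1.94-fold in SC_TH (log2 fold change 0.96, standard error 0.14, edgeR adjusted p = 0.000293) and 2.26-fold in SC_SYN (log2 fold change 1.18, standard error 0.20, edgeR adjusted p = 0.00373). The rise in input_SYN was 1.84-fold (log2 fold change 0.88, standard error 0.17, edgeR adjusted p = 0.00705) and that in input_TH was 1.38-fold (log2 fold change 0.46, standard error 0.13, edgeR adjusted p = 0.0282). The call in input_TH was lost without mouse 187, 188, 189 or 193 in turn (edgeR adjusted p = 0.0797, 0.0944, 0.0551 and 0.104), and with all 48 libraries in a single fit (edgeR adjusted p = 0.148). With the mouse as a replicate block in that fit, the limma adjusted p was 0.07. From 5m to 18m Per1 fell in SC_TH (log2 fold change -0.94, standard error 0.13, edgeR adjusted p = 0.00302) and in input_TH (log2 fold change -0.56, standard error 0.13, edgeR adjusted p = 0.0106), the latter not with all 48 libraries in a single fit (adjusted p = 0.0907). The log2 fold change was -0.77 (edgeR adjusted p = 0.104) in input_SYN and -0.77 (edgeR adjusted p = 0.16) in SC_SYN. The latter was called with all 48 libraries and the mouse as a replicate block (limma adjusted p = 0.00175).

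Per2, the partner of Per1 in the repressor complex, rose from 3w to 5m in every fraction. In input_TH it was at 35.96, 36.9, 34.2 and 36.9 CPM at 3w, 49.6, 61.7, 73.4 and 53.0 at 5m and 33.8, 49.7, 38.9 and 41.6 at 18m. In SC_TH it was at 29.0, 30.8, 35.8 and 31.4 CPM at 3w, 54.3, 55.3, 65.7 and 54.9 at 5m and 37.4, 56.6, 38.5 and 42.0 at 18m. The mice of 3w and 5m did not overlap, and at 18m mouse 196 lay within the range of 5m. In input_SYN it was at 19.3, 22.3, 24.0 and 21.2 CPM at 3w, 31.4, 34.6, 40.9 and 39.1 at 5m and 29.5, 41.5, 28.2 and 38.7 at 18m. In SC_SYN it was at 15.2, 12.97, 14.9 and 17.8 CPM at 3w, 25.9, 35.6, 35.99 and 36.7 at 5m and 22.7, 40.7, 34.7 and 23.2 at 18m. In synaptosomes each mouse of 3w was below each mouse of both later ages, and 5m and 18m overlapped. The rise was 1.65-fold in input_TH (log2 fold change 0.72, standard error 0.11, edgeR adjusted p = 0.000487) and 1.81-fold in SC_TH (log2 fold change 0.85, standard error 0.13, edgeR adjusted p = 0.000325). It was 1.66-fold in input_SYN (log2 fold change 0.73, standard error 0.16, edgeR adjusted p = 0.0144) and 2.13-fold in SC_SYN (log2 fold change 1.09, standard error 0.19, edgeR adjusted p = 0.00393). In input_SYN the call was lost without mouse 187, 188, 193 or 194 in turn (edgeR adjusted p = 0.0596, 0.0543, 0.0508 and 0.0504), which left Per1 as the only called gene of the 10 in that comparison. From 5m to 18m Per2 fell in input_TH (log2 fold change -0.54, standard error 0.11, edgeR adjusted p = 0.00655), and with all 48 libraries in a single fit the adjusted p was 0.0504. In SC_TH the log2 fold change was -0.39 (edgeR adjusted p = 0.0882), and in synaptosomes it was -0.07 (edgeR adjusted p = 0.91) in input_SYN and -0.10 (edgeR adjusted p = 0.798) in SC_SYN. The difference of these age changes between input_SYN and input_TH did not pass the test (difference of log2 fold changes 0.48, standard error 0.19, edgeR adjusted p = 0.171).

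Bhlhe41, a repressor that competes for E-boxes, was called higher at 5m than at 3w in every fraction but input_SYN. In SC_TH it was at 25.3, 30.0, 29.5 and 28.7 CPM at 3w, 41.4, 39.2, 50.4 and 44.8 at 5m and 50.5, 49.8, 49.6 and 42.3 at 18m. In input_TH it was at 30.1, 30.8, 29.5 and 26.4 CPM at 3w, 37.3, 42.8, 52.9 and 37.2 at 5m and 41.6, 41.7, 43.6 and 47.2 at 18m. In both, the mice of 3w lay below all mice of the later ages, and 5m and 18m overlapped. In SC_SYN it was at 36.1, 20.6, 26.6 and 22.2 CPM at 3w, 51.9, 35.1, 57.9 and 41.4 at 5m and 41.7, 44.4, 49.5 and 36.3 at 18m, where mouse 187 overlapped with the mice of 5m. Bhlhe41 rose from 3w to 5m in input_TH (log2 fold change 0.54, standard error 0.097, edgeR adjusted p = 0.00139), SC_TH (log2 fold change 0.63, standard error 0.10, edgeR adjusted p = 0.000537) and SC_SYN (log2 fold change 0.77, standard error 0.19, edgeR adjusted p = 0.027). The call in SC_SYN was lost without mouse 188, 189, 190, 191 or 193 in turn (edgeR adjusted p = 0.0798, 0.0727, 0.0743, 0.0704 and 0.0831). In input_SYN the log2 fold change was 0.36 (edgeR adjusted p = 0.229) from 3w to 5m and 0.36 (edgeR adjusted p = 0.423) from 5m to 18m. There, each mouse of 18m (42.6, 48.9, 38.9 and 42.5 CPM) was above each mouse of 3w (25.4, 25.0, 22.8 and 30.2 CPM), a difference that was not tested.

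Per3 and Ciart, the other repressors, had 1 called change with age between them, a rise of Per3 in input_TH. Per3 was at 58.1, 61.0, 57.6 and 58.0 CPM at 3w, 69.2, 68.0, 84.8 and 63.9 at 5m and 67.4, 71.5, 67.8 and 64.5 at 18m in input_TH. It rose there from 3w to 5m without overlap of the mice (log2 fold change 0.28, standard error 0.071, edgeR adjusted p = 0.0157). This call was lost without mouse 189 (log2 fold change 0.27, edgeR adjusted p = 0.0567) and with all 48 libraries in a single fit (adjusted p = 0.429). The log2 fold change was 0.18 without mouse 193 (edgeR adjusted p = 0.0426). In the other fractions the Per3 values of the ages overlapped, between 30.9 and 46.8 CPM in SC_TH, 10.1 and 29.2 CPM in input_SYN and 10.6 and 26.6 CPM in SC_SYN. Ciart was at 8.57, 6.69, 9.52 and 11.9 CPM at 3w, 10.4, 9.49, 20.4 and 7.92 at 5m and 11.1, 9.46, 9.76 and 9.42 at 18m in SC_TH, and the ages overlapped in each fraction. Its log2 fold changes at 5m against 3w ran from 0.11 in SC_SYN to 0.84 in input_SYN, with standard errors of 0.21 to 0.49 and edgeR adjusted p-values of 0.248 to 0.835.

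Of Nr1d1 and Nr1d2, the repressors of Arntl, the first was called higher at 5m than at 3w in SC_TH and the second in input_TH. Nr1d1 was at 53.4, 43.8, 80.7 and 57.6 CPM at 3w, 104, 75.0, 102 and 86.4 at 5m and 113, 103, 103 and 87.5 at 18m in SC_TH. It rose there from 3w to 5m (log2 fold change 0.64, standard error 0.15, edgeR adjusted p = 0.00883), although mouse 189 lay within the range of 5m. In input_TH it was at 50.4, 55.9, 55.9 and 52.1 CPM at 3w and 59.5, 61.4, 82.3 and 56.6 at 5m, without overlap, with a log2 fold change of 0.28 (edgeR adjusted p = 0.0716). There it was called by DESeq2 (0.28, adjusted p = 0.0459), and by edgeR without TMM (0.32, adjusted p = 0.0361) or with no filter on low counts (0.27, adjusted p = 0.0226). In SC_SYN the mice of 3w (58.2, 24.8, 44.2 and 52.1 CPM) were also all below those of 5m (61.5, 71.6, 92.8 and 63.4 CPM), with a log2 fold change of 0.64 (edgeR adjusted p = 0.105). With all 48 libraries in a single fit and the mouse as a replicate block, this difference in SC_SYN passed the test (limma adjusted p = 0.00555). Nr1d2 was at 57.9, 65.7, 59.9 and 63.2 CPM at 3w, 74.0, 78.9, 93.3 and 77.7 at 5m and 70.7, 76.1, 71.6 and 66.1 at 18m in input_TH. The rise from 3w to 5m was without overlap (log2 fold change 0.39, standard error 0.069, edgeR adjusted p = 0.00126). In SC_TH it was at 78.2, 87.2, 81.4 and 73.3 CPM at 3w and 74.9, 105, 110.2 and 86.8 at 5m, which overlapped (log2 fold change 0.23, edgeR adjusted p = 0.143). Whether the change of Nr1d1 or of Nr1d2 differed between SC_TH and input_TH was tested and did not pass (difference 0.34, standard error 0.19, edgeR adjusted p = 0.31 and difference -0.18, standard error 0.14, edgeR adjusted p = 0.445).

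Dbp and Tef, the output factors, passed the test from 3w to 5m in SC_TH and in no other fraction, and the differences between SC_TH and SC_SYN did not pass either. Dbp was at 45.4, 34.6, 48.9 and 43.3 CPM at 3w, 55.4, 46.1, 105 and 59.1 at 5m and 61.7, 58.7, 72.3 and 67.6 at 18m in SC_TH. The rise from 3w to 5m (log2 fold change 0.62, standard error 0.19, edgeR adjusted p = 0.0329) rested in part on mouse 193. This mouse carried the highest value, mouse 192 lay within the range of 3w, and all mice of 18m were above those of 3w (not tested). Without mouse 193 the log2 fold change went from 0.62 to 0.32 (edgeR adjusted p = 0.0822), and the call was also lost without mouse 187, 188, 190 or 194 in turn (adjusted p = 0.0697, 0.118, 0.0727 and 0.0555). It was lost as well with only the 2 ages compared (edgeR adjusted p = 0.0627) and with all 48 libraries and the mouse as a replicate block (limma adjusted p = 0.12). In input_TH Dbp was at 47.2, 53.7, 47.6 and 40.6 CPM at 3w, 49.7, 44.1, 87.2 and 42.3 at 5m and 58.6, 61.7, 59.8 and 53.1 at 18m. Neither comparison passed the test there (log2 fold changes 0.24 (edgeR adjusted p = 0.416) and 0.06 (edgeR adjusted p = 0.845)). Without mouse 193, the level at 18m exceeded that at 5m in input_TH (log2 fold change 0.36, edgeR adjusted p = 0.0212). Tef was at 165, 160.1, 197 and 161 CPM at 3w, 253, 208, 243 and 256 at 5m and 219.7, 255, 263 and 268 at 18m in SC_TH. The mice of 3w lay below all others, and the rise to 5m passed the test (log2 fold change 0.49, standard error 0.093, edgeR adjusted p = 0.00201). In input_TH it was at 238, 255, 254 and 245 CPM at 3w and 245, 260.2, 312 and 248 at 5m, which overlapped (log2 fold change 0.10, edgeR adjusted p = 0.428). The difference of these changes of Tef, SC_TH over input_TH, was 0.37 on the log2 scale with an edgeR adjusted p of 0.0849, and DESeq2 called it (adjusted p = 0.0332). In SC_SYN the mice of 3w (184, 127, 164 and 181 CPM) were below those of 5m (235, 226, 278 and 211 CPM), with a log2 fold change of 0.49 (edgeR adjusted p = 0.113). Dbp and Tef were called in SC_SYN with all 48 libraries and the mouse as a replicate block (limma adjusted p = 0.0275 and 0.00764).

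The comparison of SYN with TH addresses the level of each transcript in the synaptosome fraction, which also held RNA of glia, relative to the whole tissue. All 10 genes were lower in input_SYN than in input_TH, where 47.4% of all genes were lower. Of them, 7 of the 10 were lower in SC_SYN than in SC_TH, where 42.3% of all genes were. The median log2 ratio of the 10 genes was -0.47 in input and -0.49 in SC, against -0.17 and -0.08 for all genes tested. Per3 was the most depleted, at 0.32 of its TH level in input (log2 ratio -1.65, standard error 0.089, edgeR adjusted p = 3.56e-16) and 0.511 in SC (log2 ratio -0.97, standard error 0.11, edgeR adjusted p = 1.23e-08). In input_TH the 12 mice held 57.6 to 84.8 CPM of Per3 with a median of 66.0, and in input_SYN 10.1 to 29.2 CPM with a median of 21.5, so the fractions did not overlap. The ratio was below 0 on the log2 scale in 12 of 12 mice. Arntl was next in input (log2 ratio -0.92, standard error 0.082, edgeR adjusted p = 2.71e-11), with 22.5 to 31.0 CPM (median 26.4) in input_TH and 8.22 to 20.0 CPM (median 14.4) in input_SYN, again without overlap. Ciart (-0.77 and -0.71 on the log2 scale in input and SC), Per2 (-0.55 and -0.75), Nr1d1 (-0.55 and -0.41), Nr1d2 (-0.36 and -0.57) and Per1 (-0.37 and -0.30) were lower in both. For the output factors and Bhlhe41 the test passed in input and not in SC, and the difference between input and SC was not tested. Dbp was at -0.40 (edgeR adjusted p = 0.00478) in input and 0.04 (edgeR adjusted p = 0.795) in SC. Tef was at -0.35 (edgeR adjusted p = 0.000123) and -0.11 (edgeR adjusted p = 0.276), and Bhlhe41 was at -0.17 (edgeR adjusted p = 0.0311) and -0.02 (edgeR adjusted p = 0.802). The call of Bhlhe41 in input was lost without mouse 187, 188, 189, 192, 197 or 198 in turn (edgeR adjusted p = 0.0633, 0.0756, 0.0658, 0.0678, 0.0556 and 0.0679). When library sizes without TMM factors were used, the median of all genes moved by -0.60 in input and by -0.55 in SC. Bhlhe41, Dbp and Tef were then called lower in SC_SYN as well (-0.58, -0.51 and -0.66 on the log2 scale). Over all genes tested, those called lower in SC_SYN than in SC_TH went from 7034 to 10617.

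Whether an age change differed between SYN and TH was tested for each gene in input and in SC, and none of the 10 passed in any of these 4 comparisons by edgeR or DESeq2. Few genes passed in all at 5m against 3w (0.0224% in input and 0.0301% in SC), and at 18m against 5m 2.42% did in input and none in SC, where 2855 genes had an unadjusted p under 0.05. The largest differences among the 10 at 18m against 5m in input were those of Ciart (difference of log2 fold changes -0.52, standard error 0.49, edgeR adjusted p = 0.62) and Arntl (difference of log2 fold changes 0.50, standard error 0.20, edgeR adjusted p = 0.173). For Arntl the log2 ratio of input_SYN over input_TH in each mouse was -1.27 ± 0.364 (SD, n = 4) at 3w, -1.09 ± 0.199 at 5m and -0.61 ± 0.331 at 18m.

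The ratio of SC to input within a compartment, which the study calls translational efficiency (TE), compares a transcript's level in the SC pellet with its total level. In TH, 3 of the 10 genes were higher in SC, where 35.6% of all genes were, and 2 were lower, where 40.2% of all genes were. Ciart (log2 ratio 0.56, standard error 0.14, edgeR adjusted p = 0.000854), Nr1d1 (log2 ratio 0.47, standard error 0.078, edgeR adjusted p = 3.88e-06) and Nr1d2 (log2 ratio 0.30, standard error 0.055, edgeR adjusted p = 1.73e-05) were higher, in 12, 11 and 12 of 12 mice. Per3 was lower (log2 ratio -0.84, standard error 0.058, edgeR adjusted p = 2.7e-13), in 12 of 12 mice, with 57.6 to 84.8 CPM in input_TH and 30.9 to 46.8 CPM in SC_TH, which did not overlap. Tef was lower by less (log2 ratio -0.21, standard error 0.05, edgeR adjusted p = 0.000626). Per1 (-0.11 (edgeR adjusted p = 0.231)) and Per2 (-0.03 (edgeR adjusted p = 0.698)) did not pass, and with the mouse as a replicate block Per1 did (log2 ratio -0.11, edgeR adjusted p = 0.0308). In SYN, 3 were higher in SC, against 21.8% of all genes, and 1 was lower, against 21.5%. These were Nr1d1 (log2 ratio 0.57, standard error 0.13, edgeR adjusted p = 0.000973), Ciart (log2 ratio 0.57, standard error 0.23, edgeR adjusted p = 0.0487) and Dbp (log2 ratio 0.50, standard error 0.16, edgeR adjusted p = 0.0147), each higher in 10 of 12 mice. The gene that was lower was Per2 (log2 ratio -0.28, standard error 0.1, edgeR adjusted p = 0.0269), in 10 of 12 mice. Per3, the gene lowest in SC in TH, had a log2 ratio of -0.20 (edgeR adjusted p = 0.258) in SYN. The call of Ciart in SYN was lost without any of 10 of the 12 mice in turn (edgeR adjusted p = 0.0626 to 0.1, kept without mouse 193 or 195). That of Per2 was lost without mouse 188, 189, 193 or 198 in turn (edgeR adjusted p = 0.0587, 0.0543, 0.0521 and 0.0577), so that 2 calls were left without mouse 188, 189 or 198. The call of Per2 was also lost with no filter on low counts (edgeR adjusted p = 0.124). The sum of the nuclear RNAs was also lower in SC_TH than in input_TH. It fell with age in SC_TH, with 10521 to 13856 CPM at 3w, 7527 to 11145 at 5m and 5329 to 6369 at 18m. In SC_SYN it went up, with 851 to 1498 CPM at 3w, 1081 to 2282 at 5m and 2267 to 3529 at 18m. None of the 6 RNAs passed the age tests in SC_SYN by edgeR. The part of these RNAs in the ratios was not tested.

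None of the 10 genes passed the test of a change of TE with age in TH in the main edgeR fit. That fit does not pair the SC and input libraries of a mouse. In it, 2.33% of all genes passed between 3w and 5m and 1.78% did between 5m and 18m. None passed in SYN either, where no gene of the table passed and 473 and 393 genes had an unadjusted p under 0.05. DESeq2 called Tef, 1 of the 10, in TH at 5m against 3w and none of them in the other 3 comparisons. With no filter on low counts, edgeR called Per1 (0.53, adjusted p = 0.0143) and Tef (0.43, adjusted p = 0.0125) in TH at 5m against 3w. The shares above are those of the main edgeR fit, and those under these alternatives are not given here. For Per1 in TH, the log2 ratio of SC to input was -0.32 ± 0.0877 (SD, n = 4) at 3w, 0.18 ± 0.0986 at 5m and -0.22 ± 0.257 at 18m, so it was above 0 in 4 of 4 mice at 5m and in 0 of 4 at 3w. The change from 3w to 5m (difference of log2 ratios 0.47, standard error 0.21, edgeR adjusted p = 0.179) did not pass in the fit of all groups and did pass with the mouse as a replicate block (0.48, edgeR adjusted p = 0.026), which compares SC and input within each animal. For Nr1d1 in TH the ratio was 0.10 ± 0.362 at 3w, 0.50 ± 0.252 at 5m and 0.73 ± 0.155 at 18m, and neither difference between successive ages passed the test (edgeR adjusted p = 0.31 and 0.564).

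**Figure D3:**
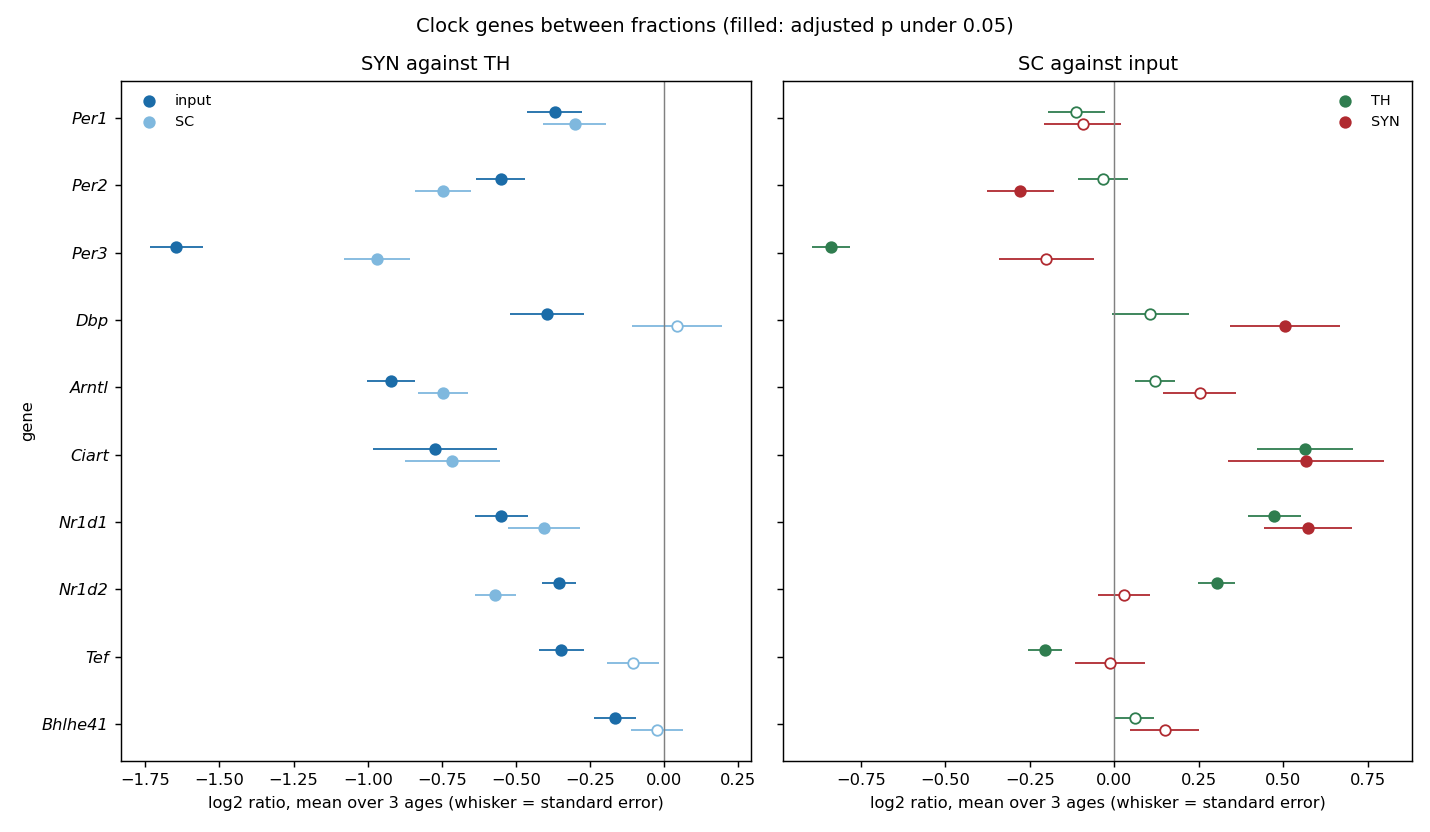
Log2 ratios of the 10 clock genes between SYN and TH (left, input and SC) and between SC and input (right, TH and SYN), as means over the 3 ages with whiskers of 1 standard error and filled points for an adjusted p under 0.05. On the left, with TMM, all points but that of Dbp in SC lie below 0, with Per3 lowest at -1.65, and on the right Ciart and Nr1d1 lie above 0 in both compartments.

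Mouse 193, of the 5m group, stood apart from its group in the clock genes, and it was singled out after its values were seen, so it is described without a test. Over the 9 genes other than Arntl and the 4 fractions, mouse 193 was the highest of the 4 mice of 5m in 31 of 36 cases and the lowest in 0, while each other mouse was the highest of its age group in 1 to 14 of 36. Over all genes tested, mouse 193 was the highest in 19.3% to 27.7% of genes in the 4 fractions. Dbp showed the difference in each library of this mouse. It was at 87.2 CPM in input_TH, where the other 3 mice of 5m were at 42.3 to 49.7 CPM, and at 105 CPM in SC_TH, where they were at 46.1 to 59.1 CPM. It was at 73.7 CPM against 33.4 to 43.1 CPM in input_SYN and at 124 CPM against 54.4 to 79.7 CPM in SC_SYN. The ratio to the mean of the other 3 was 1.90 to 1.955 in all 4 fractions. Ciart was at 2.07, 2.21, 3.54 and 2.09 times the mean of the others in input_TH, SC_TH, input_SYN and SC_SYN. In input_TH only 11 of 16825 genes had a ratio above that of Ciart and only 15 one above that of Dbp. Per1 was higher by a smaller factor, at 1.20 to 1.32 times the mean of the others, and Per3 was at 1.26 to 1.53 times. Arntl went the other way, as mouse 193 had the lowest level of its group in 3 of 4 fractions, at 0.87, 0.794, 0.705 and 0.856 times the mean of the others. The hour of killing of this mouse is not given in the sources used here, and its part in these values was not tested. Without mouse 193, of the 10 genes 4 rose from 3w to 5m in input_TH, 5 in SC_TH, 1 in input_SYN and 2 in SC_SYN, and Per1 and Per2 still rose in SC_TH (log2 fold changes 0.89 and 0.79) and in SC_SYN (1.10 and 1.07). The shares of all genes that rose without this mouse are not given here. With 3 mice left at 5m, the part of the smaller group in these counts was not tested.

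**Figure D4:**
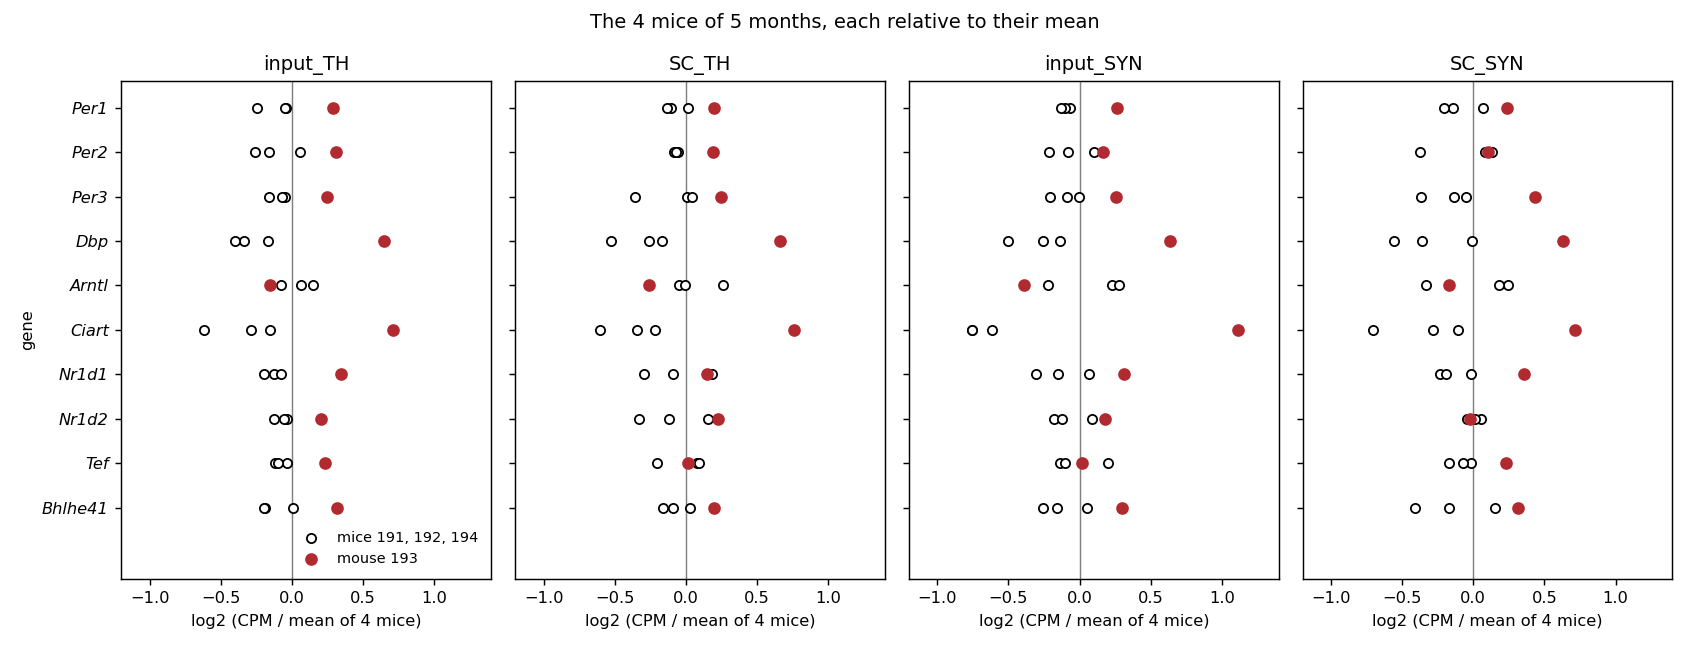
Log2 of CPM over the mean of the 4 mice of 5m for each clock gene and fraction, with mouse 193 in red and mice 191, 192 and 194 as open circles. Mouse 193 lies far to the right for Dbp and Ciart in all 4 fractions and is the lowest of the 4 for Arntl in 3 of them.

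Since Arntl and its targets peak at opposite times of day, the relation of Arntl to the other 9 genes was tested across the 12 mice in each fraction, with the age means removed. These 36 relations were adjusted together by the Benjamini-Hochberg method (two-sided permutation test, 100000 resamples). The resamples shuffled the 12 centred values across ages, although centring ties the values of an age together. The p-values may therefore be too small, and the relations that passed are not firm. By Pearson's r 3 passed, and by Spearman's rho none did. In input_TH, Arntl was lower in mice with more Dbp (r = -0.74, p = 0.00216, adjusted p = 0.0389, rho = -0.73, p = 0.00869, adjusted p = 0.156, n = 12, permutation test). It was also lower in mice with more Nr1d1 (r = -0.74, p = 0.00335, adjusted p = 0.0402, rho = -0.66, p = 0.022, adjusted p = 0.265, permutation test). Without mice 193 and 194, the 2 farthest from the median of Arntl, r was -0.56 and -0.52. In SC_SYN, Arntl was higher in mice with more Per2 (r = 0.85, p = 0.00063, adjusted p = 0.0227, rho = 0.78, p = 0.00367, adjusted p = 0.132, permutation test), and r was 0.85 without mice 191 and 192. None of these relations held in all fractions. In input_TH, SC_TH, input_SYN and SC_SYN in this order, r was -0.74, -0.20, 0.33 and 0.09 for Dbp, -0.74, 0.63, 0.34 and 0.48 for Nr1d1, and -0.06, 0.07, 0.11 and 0.85 for Per2. That of Nr1d1 in SC_TH did not pass (p = 0.0274, adjusted p = 0.165, rho = 0.51, p = 0.0929, adjusted p = 0.372, permutation test), and r was 0.23 without mice 189 and 191. The number of relations that passed ranged from 0 to 5 when each mouse was left out in turn. It was 0 without mouse 188, 190 or 194, 1 without mouse 192 or 196, 2 without mouse 195 or 197 and 5 without mouse 189.

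Genes with a pattern most like that of Dbp and of Arntl were ranked over the 48 libraries, with each fraction centred, among 15880 genes with at least 10 counts per library on average. The 48 libraries share 12 mice and differ in depth, so these values of Spearman's rho are a description. Closest to Dbp were Rps6ka4 (rho 0.83), Gpr153 (0.83), Meis3 (0.82), Hrh3 (0.82) and C2cd2l (0.82). Of the other clock genes described here, Nr1d1 (0.79) ranked 20 and Tef (0.77) ranked 82. Far lower, Per3 (0.68) ranked 582, Bhlhe41 (0.61) 1230, Per1 (0.45) 2898 and Per2 (0.44) 2992, while Ciart (0.07), Nr1d2 (0.05) and Arntl (-0.06) lay near 0. Age was not removed from this ranking. Closest to Arntl were Nif3l1 (0.79), Phyhipl (0.72), Hivep2 (0.70), Mical2 (0.68) and Smap1 (0.65), and none of the other 9 clock genes exceeded 0.18.

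Of 24 other genes of the clock, all were tested in TH, 21 in input_SYN and 23 in SC_SYN. At 5m against 3w, 5 rose in input_TH, 7 in SC_TH, 1 in input_SYN and 2 in SC_SYN, where 4.76%, 9.48%, 1.28% and 4.02% of all genes rose. Rbm3 fell in SC_TH (-0.88 (edgeR adjusted p = 0.0251), where 8.46% of all genes fell). Rbm3 and Noct fell in SC_SYN (-1.25 (edgeR adjusted p = 0.0187) and -0.41 (edgeR adjusted p = 0.0498), where 4.02% of all genes fell). Bhlhe40, the close relative of Bhlhe41, rose in all 4 fractions, with log2 fold changes of 0.86 in input_TH, 1.12 in SC_TH, 0.83 in input_SYN and 1.12 in SC_SYN (edgeR adjusted p = 1.05e-05, 1.84e-05, 0.00766 and 0.00155). Fbxl21, which encodes an E3 ligase subunit for cryptochromes, rose in input_TH (0.74 (edgeR adjusted p = 0.00503)) and SC_TH (0.99 (edgeR adjusted p = 0.0322)). Cry1 and Cry2, the partners of the PER proteins, rose in SC_TH (0.62 (edgeR adjusted p = 0.00473) and 0.39 (edgeR adjusted p = 0.00876)) and had log2 fold changes of 0.35 (edgeR adjusted p = 0.0575) and 0.08 (edgeR adjusted p = 0.48) in input_TH. Clock and Npas2, the partners of ARNTL, did not pass at 5m against 3w in any fraction. At 18m against 5m, 2 of the 24 rose in input_TH, where 8.18% of all genes rose. These were Cirbp (0.64 (edgeR adjusted p = 0.00319)) and Usp2 (0.46 (edgeR adjusted p = 0.00229)). In input_TH 2 of the 24 fell, where 7.35% of all genes did. Those that fell were Bhlhe40 (-0.47 (edgeR adjusted p = 0.00423)) and Clock (-0.37 (edgeR adjusted p = 0.00555)), and neither fall was called with all 48 libraries in a single fit. None of the 24 passed at 18m against 5m in SC_TH, input_SYN or SC_SYN, where 2, 2 and 6 had an unadjusted p under 0.05 in edgeR. Over all genes tested, 2878 of 16427, 1214 of 12975 and 2474 of 14240 did. The median log2 fold change of the 24 at 5m against 3w was 0.07, 0.20, 0.01 and 0.11 in input_TH, SC_TH, input_SYN and SC_SYN.

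Because Per1 and Per2 also respond to glucocorticoids and to neuronal activity, genes of both responses were followed in the same mice. Tsc22d3, a glucocorticoid-induced gene, rose and fell with age in every fraction, with log2 fold changes from 3w to 5m of 0.52, 0.53, 0.69 and 0.79 in input_TH, SC_TH, input_SYN and SC_SYN. From 5m to 18m they were -0.59, -0.50, -0.73 and -0.98 in the same order, and all of these values passed the test. Fkbp5, also induced by glucocorticoids, rose from 3w to 5m in input_TH (0.76 (edgeR adjusted p = 5.04e-05)), SC_TH (0.80 (edgeR adjusted p = 0.000199)) and SC_SYN (0.68 (edgeR adjusted p = 0.0439)) and fell from 5m to 18m in input_TH (-0.30 (edgeR adjusted p = 0.0344)). Of 14 glucocorticoid-induced genes, 8, 7, 2 and 5 rose from 3w to 5m in the 4 fractions in this order and 0 fell, and from 5m to 18m 6, 2, 1 and 1 fell and 0 rose. Over all genes tested in the same order, 4.76%, 9.48%, 1.28% and 4.02% rose from 3w to 5m, and 7.35%, 1.79%, 0.108% and 0.00702% fell from 5m to 18m. Arc, an immediate early gene of neurons, fell from 5m to 18m in input_TH (-1.14 (edgeR adjusted p = 0.0091)), SC_TH (-1.60 (edgeR adjusted p = 0.0112)) and input_SYN (-1.80 (edgeR adjusted p = 0.011)), and Fos fell in input_TH (-0.77 (edgeR adjusted p = 0.0343)) and SC_TH (-1.19 (edgeR adjusted p = 0.0204)). Of 12 immediate early genes, 1, 5, 1 and 1 rose from 3w to 5m, and 6, 7, 1 and 0 fell from 5m to 18m, in the same order of fractions and beside the same shares of all genes. In mouse 193 the sum of the 14 glucocorticoid-induced genes was 571 CPM in input_TH, the lowest of its group (571 to 627 CPM). That of the immediate early genes was 815 CPM, the highest (662 to 815 CPM). For this mouse the glucocorticoid sum was 738, 671 and 841 CPM in SC_TH, input_SYN and SC_SYN. The group ranges were 724 to 803, 656 to 710 and 807 to 842 CPM, so it was not the lowest there. The sums of its immediate early genes were 1315, 1143 and 1342 CPM. They were the highest in SC_TH and SC_SYN but not in input_SYN (1083 to 1340 CPM). The part of either response in the changes of Per1 and Per2 was not tested. Among markers of cell types, all 8 of oligodendrocytes fell from 3w to 5m in each fraction (median log2 fold changes -1.37, -1.0, -1.44 and -1.41). Of all genes, 7.05% fell in input_TH, 8.46% in SC_TH, 1.94% in input_SYN and 4.02% in SC_SYN. Their sum went from 5293 to 6566 CPM down to 2096 to 2373 CPM in input_TH. Of 8 microglia markers 0, 3, 4 and 5 rose from 3w to 5m in the same order, and 1 fell in input_TH. Of 8 astrocyte markers 3, 3, 1 and 0 fell and 0, 1, 0 and 1 rose, and of 8 endothelial markers 3 fell in SC_TH and 1 rose in input_TH. Of the neuronal markers 1 rose and 3 fell in input_TH, 1 rose in SC_TH and 1 fell in each of input_SYN and SC_SYN. From 5m to 18m in input_TH, where 8.18% of all genes rose and 7.35% fell, 5 of 8 neuronal markers rose (median log2 fold change 0.22), 4 of 8 oligodendrocyte markers rose (0.20), 4 of 8 endothelial markers fell (-0.50) and 1 astrocyte marker rose and 2 fell. No marker of these cell types passed from 5m to 18m in the other fractions by edgeR. For oligodendrocytes, 4 of 8 in SC_SYN and 1 of 8 in each of SC_TH and input_SYN had an unadjusted p under 0.05. Over all genes, 2474 of 14240 did in SC_SYN, 2878 of 16427 in SC_TH and 1214 of 12975 in input_SYN. All 5 erythrocyte markers fell from 3w to 5m in input_TH and 4 of 5 in SC_TH, and no marker of these lists was at 0 in all mice of a group. The part of these cell types in the age changes of the clock genes was not tested.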

How the data were processed

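Cortex of 12 mice at 3 ages was split into 4 fractions, which gave 48 libraries. The deposited values are whole-number counts per gene, without normalization. The authors removed ribosomal RNA, prepared directional libraries, demultiplexed with bcl2fastq 2.20.0.422, aligned with TopHat2 2.1 to GRCm38 and counted with featureCounts without regard to strand. Library adaptors carried molecular identifiers, whose use in counting is not given in the sources used here, so reads may not be independent molecules. Symbols came from GENCODE M21, which held 48144 of the 48526 identifiers, and the others took 0.0596% of counts and stayed in the totals.

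Each comparison was fitted on the whole table with edgeR 4.0.16 (filterByExpr, TMM, quasi-likelihood test, R 4.3.3), with Benjamini-Hochberg adjustment over all genes tested and a threshold of 0.05. Age comparisons used the 12 libraries of a fraction and comparisons of fractions used 24. Fold changes are fitted values, and CPM used in relations were logged with a prior count of 2. Alternatives were DESeq2 1.42.0, library size without TMM, no filter, only the 2 ages compared, all 48 libraries together (with a replicate block by limma 3.58.1) and each mouse left out. The mouse numbers pair the 4 libraries of an animal. Deviations of libraries of the same mouse from their group means correlated at -0.603 to 0.634, with medians of -0.05 to 0.18 over 6 pairs of fractions. The scripts were tested on simulated counts.

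The 10 genes and all gene lists were chosen with earlier results of these data known. Named are the 10 genes, Clock, Npas2, Cry1 and Cry2, of 20 further clock genes at most 3 per direction and comparison, 2 genes each of the glucocorticoid and immediate early lists, and the 5 genes most like Dbp and Arntl. A further gene that this rule names is not reported here.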

Additional observations from a re-analysis of the deposited data

Results flagged for a closer look

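In 9 of 120 groups of 4 mice (10 clock genes, 4 fractions, 3 ages), 1 mouse stood apart by its gap to the nearest other mouse as a share of the range of the group. Chance gives about 1 in 20 groups, or 6 of 120. Mouse 193 of 5m was high in 4 of them, namely Ciart in input_SYN (13.5 CPM against 3.68 to 4.05, share 0.962), Per2 in SC_TH (65.7 against 54.3 to 55.3, share 0.911), Per1 in input_SYN (159 against 120.4 to 126, share 0.863) and Dbp in input_TH (87.2 against 42.3 to 49.7, share 0.835). The Ciart value of this mouse rests on 30 counts. At 18m, mouse 196 was high for Per1 in SC_TH (117 CPM against 72.9 to 77.4, share 0.897) and mouse 198 was low for Bhlhe41 in SC_TH (42.3 against 49.6 to 50.5, share 0.893). At 5m, mouse 191 was low for Per2 in SC_SYN (25.9 CPM against 35.6 to 36.7, share 0.896). At 3w, mouse 189 was high for Tef in SC_TH (197 CPM against 160.1 to 165, share 0.856) and mouse 188 for Per3 in input_TH (61.0 against 57.6 to 58.1, share 0.842).

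Clock, which encodes the partner of ARNTL, had an age change that differed between compartments. From 5m to 18m its log2 fold change was -0.37 in input_TH and 0.38 in input_SYN, where it did not pass the test (edgeR adjusted p = 0.45). The difference of 0.75 (standard error 0.16, edgeR adjusted p = 0.015) was no longer called without mouse 192 or 194, with an adjusted p of up to 0.0756.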

How the results depend on the processing

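Of 45 called values of the 10 genes, 35 passed the threshold in every alternative and none reversed. Counts of called genes among the 10 that moved by over 1.5 times were these. With all 48 libraries in one fit, the count at 5m against 3w in input_TH went from 5 to 3 (3 with the replicate block), that in SC_SYN from 3 to 6 (6 with the block) and that at 18m against 5m in input_TH from 2 to 0. At 18m against 5m in SC_SYN it went from 0 to 1 with that fit, with the block, with DESeq2 and with no filter, in input_SYN from 0 to 1 with DESeq2 or no filter, and in SC_TH from 1 to 2 with no filter. For the change of SC_TH over input_TH from 3w to 5m it went from 0 to 2 with no filter, 1 with DESeq2 and 1 with the replicate block. Smaller moves were 5 to 6 at 5m against 3w in input_TH (Nr1d1, with DESeq2, no filter or no TMM), 3 to 4 in SC_SYN (Nr1d1, no filter), 2 to 3 at 18m against 5m in input_TH (Nr1d2, no TMM) and 7 to 10 for SC_SYN over SC_TH (no TMM). Over all genes, no TMM moved those higher at 5m against 3w in input_TH from 861 to 1411. Those lower at 18m against 5m in input_TH went from 1329 to 2063, and those lower in SC_SYN than in SC_TH from 7034 to 10617. Shares of all genes called under the other alternatives, or without each mouse, are not given here. Arntl was gained for SC over input in TH (5 to 6) and in SYN (4 to 4, as Per2 was lost) with no filter, and in SYN without TMM (4 to 5). Dbp was lost at 5m against 3w in SC_TH with the 2 ages alone and with all 48 libraries, with or without the block (6 to 5). Beyond the calls given above, the block changed none of the comparisons between fractions.

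Leaving out each mouse gave 3 to 6 and 2 to 3 called genes in input_TH (5m over 3w, then 18m over 5m), 5 to 7 and 1 to 2 in SC_TH, 1 to 2 and 0 to 1 in input_SYN, and 2 to 3 and 0 to 0 in SC_SYN. The lowest count in input_TH came without mouse 189, and the gains in SC_TH and input_SYN at 18m without mouse 196. For fractions it gave 9 to 10 for input_SYN over input_TH, 7 to 7 for SC_SYN over SC_TH, 5 to 6 for SC_TH over input_TH, 2 to 4 for SC_SYN over input_SYN and 0 to 1 for the change of SC_TH over input_TH from 3w to 5m (1 without mouse 189 or 192), and 0 in the other changes. Relations of Arntl past the threshold numbered 3, or 4 without TMM, 3 with a prior count of 0.5 and 0 to 5 without each mouse.

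Without TMM, the share of called genes that were higher, over all genes, went from 40.3% to 59.2% at 5m against 3w and from 52.7% to 32.6% at 18m against 5m in input_TH. It went from 50% to 39.2% and from 50% to 66.7% in SC_SYN, from 43.6% to 25.0% for input_SYN over input_TH and from 46.6% to 25.7% for SC_SYN over SC_TH. For changes with age it went from 41.7% to 67.9% (input_SYN over input_TH, 18m), from 43.1% to 22.8% and from 34.1% to 52.9% (SC_TH over input_TH, 5m and 18m) and from 100% to 83.3% (SC_SYN over SC_TH, 5m). The causes were not tested. Low counts limit Ciart in synaptosomes, and 4 mice per age, the hour of killing and shared animals limit all age comparisons.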
